A study of Mus musculus with 30 samples.

Results

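The genes described here are 32 microglia and macrophage genes, chosen by symbol and read from the count table of ribosome-bound RNA from the nucleus accumbens, a region of the ventral striatum. All 32 were found among the 55335 genes of the table, and 31 passed the filter on low counts. The mice were females of 2 lines, D1-Cre-RT and A2A-Cre-RT, in which Cre under the control of a dopamine receptor D1 or an adenosine A2A receptor promoter switches on an HA-tagged ribosomal protein (RiboTag, RT) in D1 or D2 medium spiny neurons. A2A-Cre-RT libraries are called D2 here, as in the sample titles. The stressed mice had gone through chronic witness defeat stress, in which a female watches a male being defeated, and were sorted by social interaction score into Resilient and Susceptible groups. Control mice were the third group. Punches were frozen 24 h after the social interaction test, and polyribosomes were pulled down with an antibody against HA. Each library pooled 4 mice with similar scores. Each of the 6 groups (D1 or D2, with Control, Resilient or Susceptible) had 5 libraries, which gives 30 in all. All mice of a class came from 1 Cre line, so class and line cannot be told apart.

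Microglia are the resident macrophages of the brain. They survey synapses through receptors such as Cx3cr1, which binds the neuronal chemokine Cx3cl1, and P2ry12, which senses ADP, and they depend on signalling through Csf1r. They are the main source of the complement chains C1qa, C1qb and C1qc, which tag synapses and debris for uptake. Macrophages at the borders of the brain, along vessels and in the meninges, share many of these genes and in addition carry the mannose receptor Mrc1, the chemokine Pf4 and high Lyz2. A pulldown of tagged neuronal ribosomes is made to enrich the RNA of those neurons over that of other cells, microglia among them.

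The libraries held 28996168 to 65882152 counts assigned to genes. Values are CPM (counts scaled to the library total) on library sizes scaled by TMM, and 3 counts, the limit that a count of 0 allows, came to 0.0430 to 0.304 CPM. Intervals and limits of this kind cover counting error only. Of 6 neuron class genes, all changed in the direction of the class labels between D1 and D2 libraries (edgeR quasi-likelihood test), among them Drd1 at a log2 difference of 2.33 and Adora2a at -2.73. Several libraries stood apart. D2 Resilient 5 had 414 CPM of Drd1, inside the range of the D1 libraries (377 to 616 CPM), while the other D2 libraries reached at most 247 CPM. D1 Susceptible 1 had 54.9% of its counts on Gm42418, a gene that overlaps ribosomal RNA, and D2 Susceptible 1 and 2 had 15822 and 16525 genes with a count, against 19440 to 22375 elsewhere. D1 Control 1 had the highest summed level of the 32 genes in its class. P-values measure the spread between pools of mice.

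Before the values, short upstream stretches of 7 of the genes are shown, because the genes of myeloid cells share a binding motif for PU.1, the factor that Spi1 encodes. RefSeq promoter windows (GRCm38.p6) matched 24 of the 32 genes. The 250 bases upstream of the start held the PU-box core GAGGAA, on either strand, in 15 of 24 genes (62.5%), against 25.9% of the 27025 genes in the table. Overlapping spellings were also found in larger shares of the 24. AGGAAG was in 18 of the 24 (75%), against 32.3% of all genes. The spelling GGAAGT was in 12 (50%), against 22.2%, and the longer GAGGAAGT in 3 (12.5%), against 2.8%. C1qb, Ctss, Itgam and Pf4 are shown as genes that were lower in D1 than in D2 libraries, and Cd68, Inpp5d and P2ry13 as the 3 genes with the class differences nearest to 0. Capitals mark GAGGAA or its reverse complement TTCCTC, and each stretch reads 5′ to 3′ on the strand of its gene.
C1qb (chr4:136886201-136886260, minus strand): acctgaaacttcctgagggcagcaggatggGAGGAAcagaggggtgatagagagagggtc
Ctss (chr3:95526595-95526654, plus strand): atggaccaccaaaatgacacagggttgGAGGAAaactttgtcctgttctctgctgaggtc
Itgam (chr7:128062580-128062639, plus strand): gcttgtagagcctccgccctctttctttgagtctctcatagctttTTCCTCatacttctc
Pf4 (chr5:90772375-90772434, plus strand): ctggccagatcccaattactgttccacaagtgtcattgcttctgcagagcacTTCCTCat
Cd68 (chr11:69666361-69666420, minus strand): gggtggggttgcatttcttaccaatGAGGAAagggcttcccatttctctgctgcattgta
Inpp5d (chr1:87620252-87620311, plus strand): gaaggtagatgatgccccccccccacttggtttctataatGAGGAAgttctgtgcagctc
P2ry13 (chr3:59210898-59210957, minus strand): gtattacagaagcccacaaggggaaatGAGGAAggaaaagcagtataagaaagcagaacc
All 7 were picked from genes that hold the motif. Of the 14 tested genes with GAGGAA in a matched window, 9 were lower in D1 libraries, and of the 9 without it, 6 were. Pf4, counted among those with GAGGAA, passed the filter on low counts only through the D2 libraries. That favours a lower level in D1 in advance, so its call adds nothing to the count. A match is a run of letters and shows no binding.

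The 32 genes were at low levels in all 30 libraries. The highest value of any of them was 16.4 CPM, for Cx3cr1 in D2 Control 4. Summed over the 32 genes, the level was 59.7 ± 31.9 CPM (SD, n = 5) in D1 Control, 43.8 ± 4.93 CPM in D1 Resilient and 56.4 ± 14.9 CPM in D1 Susceptible libraries. The D2 sums were 89.5 ± 21.8, 87.4 ± 27.0 and 85.9 ± 9.88 CPM in the same order. The lowest, median and highest sums were 40.6, 44.6 and 116 CPM over 15 D1 libraries and 59.4, 81.3 and 130 CPM over 15 D2 libraries, so the classes overlapped. The mean was higher in D2 than in D1 libraries for 30 of the 32 genes, all but P2ry13 and Trem2, with a median ratio of 1.79. For none of the 32 did the 15 D1 and 15 D2 libraries separate without overlap. Neither this count nor that of the means was made over all genes, so no background share is given. Fewer cells of a type in the material and less RNA per cell cannot be told apart in such bulk libraries, nor do the counts show in which cells the reads arose.

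**Figure D1:**
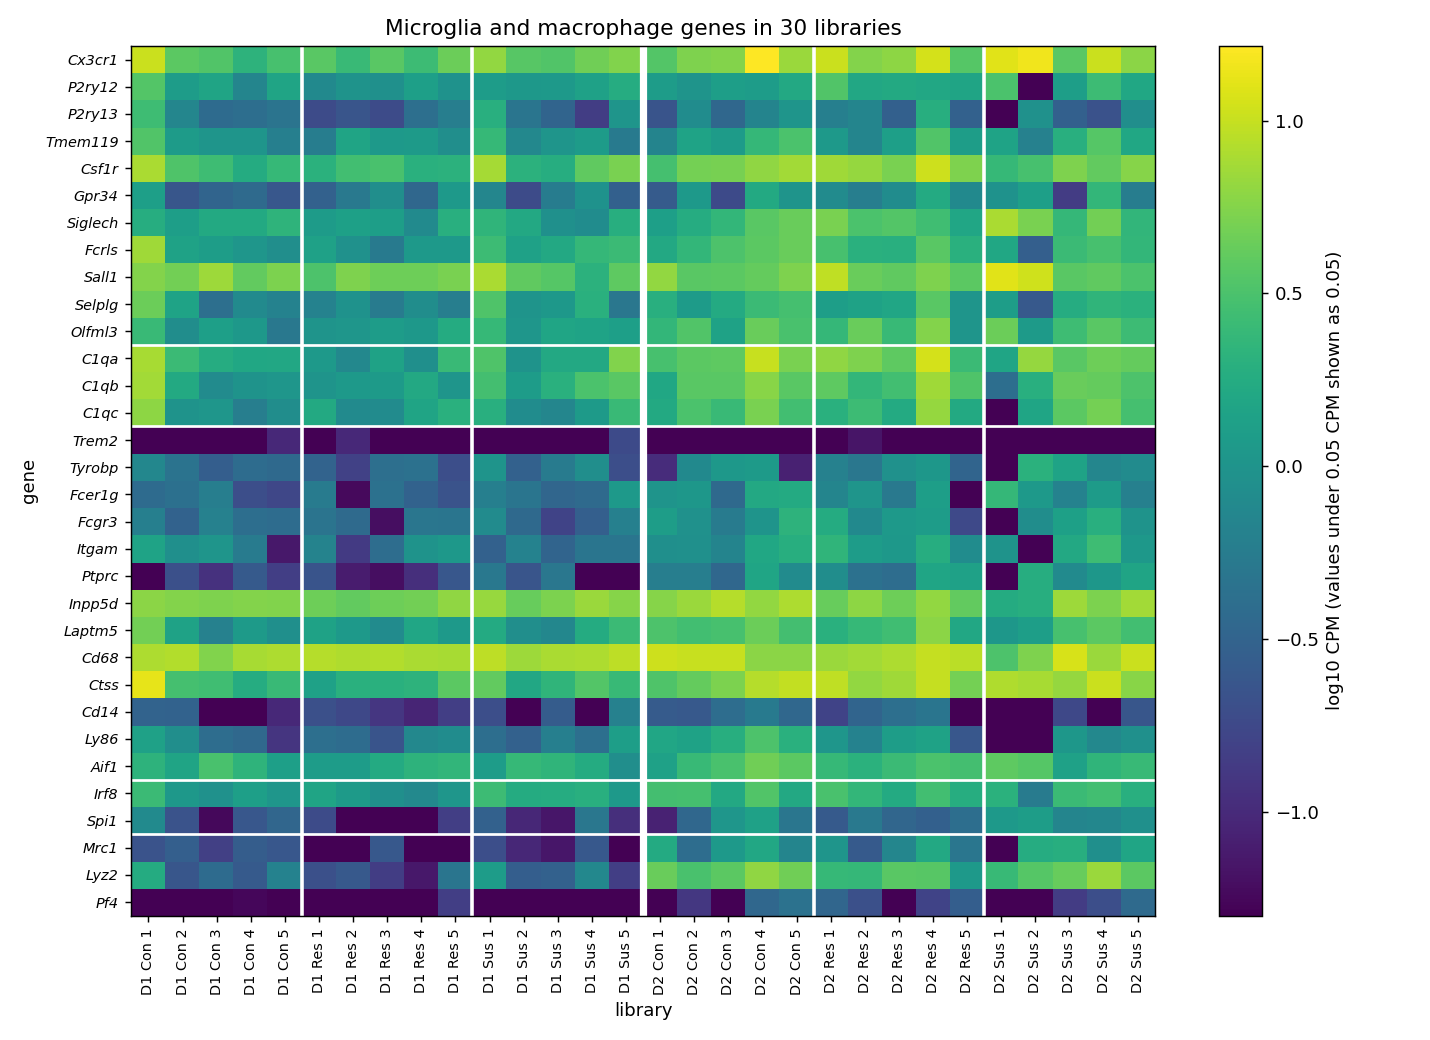
Level of each of the 32 genes (rows, by role) in each of the 30 libraries (columns), as log10 CPM by colour, with values under 0.05 CPM drawn as 0.05. Cx3cr1, Cd68 and Ctss are bright throughout, Trem2 and Pf4 are dark, and the 3 lowest rows (Mrc1, Lyz2, Pf4) are brighter in D2 columns.

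**Figure D2:**
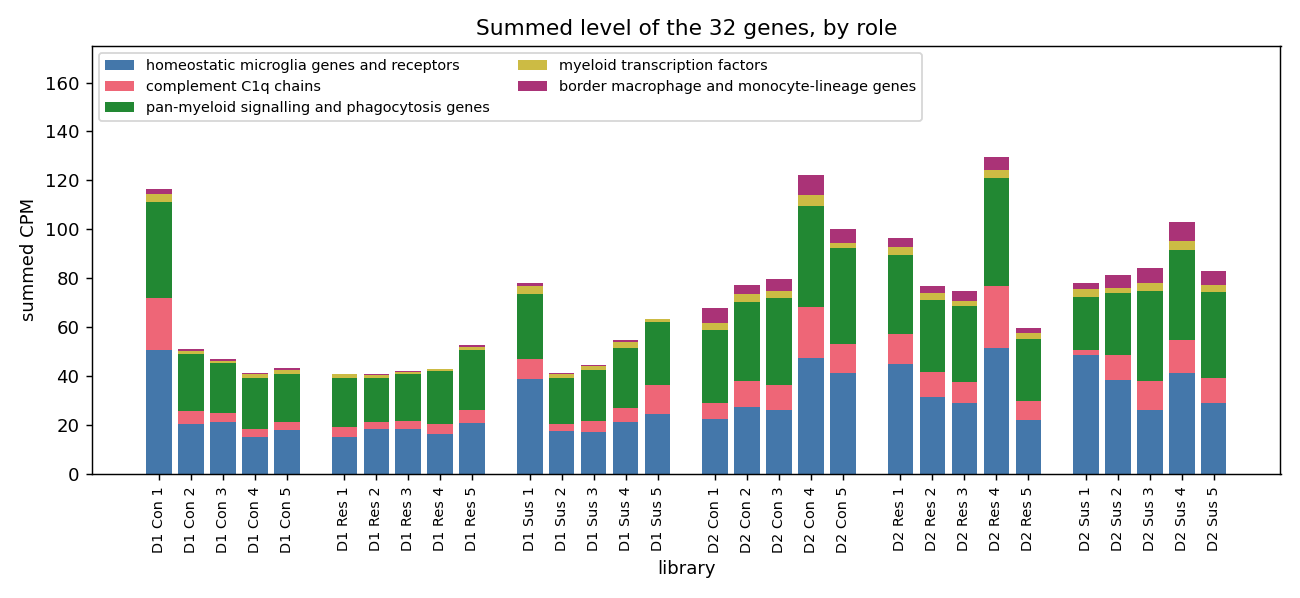
Summed CPM of the 32 genes in each library, stacked by role, with D1 libraries on the left and D2 libraries on the right. D1 Control 1 reaches 116 CPM against 41.2 to 51.0 CPM in the other D1 Control libraries, and D2 libraries range from 59.4 to 130 CPM.

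Set against length, as CPM per kilobase of exon, the most abundant of the 32 were the lysosomal glycoprotein Cd68 (6.37 in D1 and 6.45 in D2), the lysosomal protease Ctss (2.38 and 5.27), C1qa (2.26 and 4.88) and C1qb (1.89 and 3.20). The order then differed by class. Lyz2, which encodes lysozyme, ranked 5 of 32 in D2 libraries at 2.85 CPM per kilobase and 18 of 32 in D1 libraries at 0.363, while Trem2 was last in both at 0.00284 and 0.00678. These are class means of 15 libraries. Neighbours in this order lie within the spread between libraries in many places, and no test was made between genes.

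Microglia and macrophage genes were lower in D1 than in D2 libraries when the 3 conditions were averaged. Of 31 tested genes, 18 were lower in D1 libraries and none was higher, against 15.5% of all 19368 genes called lower (edgeR quasi-likelihood test, adjusted p under 0.05). The median log2 difference of the 31 was -0.84, against 0.0045 over all genes. The 3 border macrophage genes had the lowest median of the 5 roles at -3.12, followed by the transcription factors Spi1 and Irf8 at -1.25, the C1q chains at -0.90, the pan-myeloid genes at -0.89 and the homeostatic microglia genes at -0.57. Pf4 passed the filter on low counts only through the D2 libraries, which favours a lower level in D1 in advance. Pf4 is counted in the 18 and in the border macrophage median, but its call adds nothing to them. The other border macrophage genes, Mrc1 and Lyz2, were at -3.16 and -3.12. Without D1 Control 1 the number called lower was 22, without D2 Susceptible 1 it was 20, and without D2 Resilient 5 it was 18. The shares of all genes called lower in those fits are not given here. Levels of other cell types moved the same way and are given further on.

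**Figure D3:**
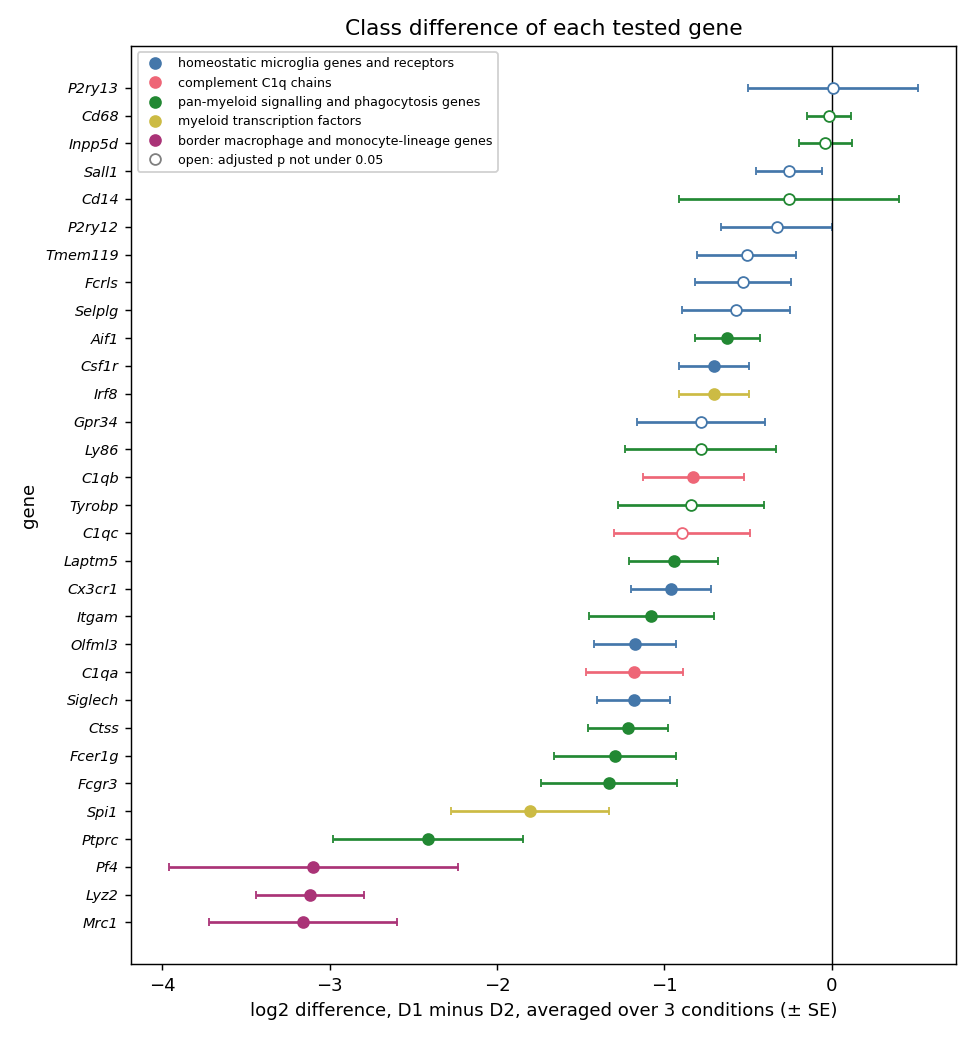
Log2 difference of D1 minus D2, averaged over the 3 conditions (horizontal axis, ± SE), for each of the 31 tested genes, coloured by role, with open circles where the adjusted p was not under 0.05. Mrc1, Lyz2 and Pf4 lie near -3, and P2ry13, Cd68 and Inpp5d lie near 0.

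Among the border macrophage and monocyte-lineage genes, Lyz2 (chromosome 10, 117277331 to 117282321, GRCm38) showed the smallest adjusted p of the 32. Lyz2 in D1 libraries stood at 1.78, 0.238, 0.377, 0.259 and 0.655 CPM in Control, 0.206, 0.251, 0.145, 0.0726 and 0.480 CPM in Resilient, and 1.22, 0.285, 0.304, 0.742 and 0.147 CPM in Susceptible mice. Lyz2 in D2 libraries reached 4.39, 3.11, 3.83, 6.27 and 4.66 CPM in Control, 2.40, 2.38, 3.70, 3.62 and 1.13 CPM in Resilient, and 2.47, 3.55, 4.26, 6.81 and 3.78 CPM in Susceptible mice. In 13 of the 15 D1 libraries Lyz2 was below every D2 library, and D1 Control 1 and D1 Susceptible 1 were the other two. The mean was 0.477 ± 0.465 CPM (SD, n = 15) in D1 and 3.76 ± 1.46 CPM in D2 libraries, and the averaged log2 difference was -3.12 ± 0.32 (SE; adjusted p = 5.38e-09). Lyz2 has a close paralog, Lyz1, next to it, so the split of reads between the pair is uncertain.

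Mrc1 encodes the mannose receptor, an endocytic receptor of perivascular and meningeal macrophages. Mrc1 in D1 libraries stood at 0.220, 0.289, 0.151, 0.277 and 0.243 CPM in Control, 0, 0.0193, 0.248, 0 and 0.0185 CPM in Resilient, and 0.203, 0.0950, 0.0716, 0.247 and 0 CPM in Susceptible mice. Mrc1 in D2 libraries reached 1.74, 0.398, 1.13, 1.61 and 0.702 CPM in Control, 1.03, 0.258, 0.716, 1.66 and 0.482 CPM in Resilient, and 0, 1.83, 1.89, 0.888 and 1.51 CPM in Susceptible mice. All D1 values were under 0.3 CPM, and D2 values lay above them except in D2 Susceptible 1, at 0, and D2 Resilient 2. The log2 difference of Mrc1 was -3.16 ± 0.56 (SE; adjusted p = 5.87e-05), on class means of 0.139 ± 0.113 CPM (SD, n = 15) in D1 and 1.06 ± 0.623 CPM in D2 libraries. Pf4 in D1 libraries stood at 0, 0.0511, 0.0188, 0.0554 and 0.0243 CPM in Control, 0, 0.0387, 0, 0 and 0.148 CPM in Resilient, and 0, 0.0190, 0, 0 and 0 CPM in Susceptible mice. Pf4 in D2 libraries reached 0, 0.127, 0, 0.347 and 0.444 CPM in Control, 0.339, 0.207, 0, 0.162 and 0.281 CPM in Resilient, and 0, 0, 0.140, 0.199 and 0.368 CPM in Susceptible mice. Pf4, a platelet chemokine that border macrophages also make, had 19 counts in all in D1 libraries and 161 in D2 libraries, with 8 and 5 libraries at 0. Its fitted log2 difference of -3.10 ± 0.86 (SE; adjusted p = 0.00672) rests on those few counts.

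Of the 11 homeostatic microglia genes, 4 were lower in D1 libraries (Siglech, Olfml3, Cx3cr1 and Csf1r) and 7 did not pass the test. Cx3cr1 in D1 libraries stood at 10.2, 3.78, 3.37, 2.12 and 3.03 CPM in Control, 3.71, 2.55, 3.74, 2.63 and 4.43 CPM in Resilient, and 6.39, 3.65, 3.38, 4.64 and 5.54 CPM in Susceptible mice. Cx3cr1 in D2 libraries reached 3.50, 5.30, 5.63, 16.4 and 6.81 CPM in Control, 10.5, 5.66, 6.08, 11.3 and 3.54 CPM in Resilient, and 12.6, 14.6, 3.70, 10.3 and 6.07 CPM in Susceptible mice. Apart from D1 Control 1, D1 values of this fractalkine receptor stayed at or under 6.39 CPM, and 6 D1 libraries were below all D2 libraries. Its class means were 4.21 ± 2.01 CPM (SD, n = 15) in D1 and 8.14 ± 4.18 CPM in D2 libraries, and the log2 difference was -0.96 ± 0.24 (SE; adjusted p = 0.00283). Csf1r in D1 libraries stood at 7.93, 3.35, 2.73, 1.77 and 2.45 CPM in Control, 2.04, 2.82, 3.10, 2.00 and 2.09 CPM in Resilient, and 7.61, 2.05, 1.84, 3.96 and 5.10 CPM in Susceptible mice. Csf1r in D2 libraries reached 2.98, 4.94, 5.02, 6.23 and 7.38 CPM in Control, 7.21, 6.56, 5.15, 10.5 and 5.41 CPM in Resilient, and 2.43, 3.08, 5.38, 4.12 and 5.67 CPM in Susceptible mice. D1 Control 1 and D1 Susceptible 1 were the high D1 libraries for Csf1r, the receptor on which microglial survival depends, and the classes overlapped. The log2 difference of Csf1r was -0.70 ± 0.21 (SE; adjusted p = 0.0114). The exons of Csf1r overlap those of Hmgxb3 on the opposite strand over 873 bases, and the strand setting of the counting is not given.

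Siglech in D1 libraries stood at 1.84, 1.29, 1.68, 1.68 and 2.16 CPM in Control, 1.20, 1.33, 1.30, 0.798 and 1.92 CPM in Resilient, and 2.23, 1.65, 0.912, 0.845 and 1.91 CPM in Susceptible mice. Siglech in D2 libraries reached 1.32, 1.81, 2.34, 3.76 and 4.34 CPM in Control, 5.13, 3.18, 3.50, 2.75 and 1.53 CPM in Resilient, and 7.96, 5.18, 2.39, 4.76 and 2.25 CPM in Susceptible mice. For Siglech, a sialic acid-binding lectin restricted to microglia within the brain, D1 Control 1 was not the highest D1 library, unlike for Cx3cr1 and Csf1r. Its log2 difference was -1.18 ± 0.22 (SE; adjusted p = 9.86e-05), with 6 D1 libraries below all D2 libraries. Olfml3, a secreted matrix protein of microglia, had lowest, median and highest values of 0.510, 1.24 and 2.53 CPM in D1 and 1.03, 2.74 and 5.56 CPM in D2 libraries, and a log2 difference of -1.18 ± 0.24 (SE; adjusted p = 0.000399).

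P2ry12 and Tmem119, which mark microglia against other macrophages, did not pass the test. P2ry12 in D1 libraries stood at 3.46, 1.23, 1.47, 0.702 and 1.48 CPM in Control, 0.787, 0.986, 0.909, 1.31 and 0.960 CPM in Resilient, and 1.22, 1.10, 1.14, 1.38 and 1.80 CPM in Susceptible mice. P2ry12 in D2 libraries reached 1.24, 0.995, 1.29, 1.22 and 1.66 CPM in Control, 3.39, 1.62, 1.69, 1.62 and 1.49 CPM in Resilient, and 3.22, 0, 1.28, 2.65 and 1.57 CPM in Susceptible mice. The P2ry12 ranges overlapped almost in full, and D2 Susceptible 2 had no count. The log2 difference was -0.33 ± 0.33 (SE; adjusted p = 0.494), so a difference of either sign lies within 2 SE. Tmem119 in D1 libraries stood at 3.41, 1.21, 1.04, 1.03 and 0.607 CPM in Control, 0.581, 1.49, 1.16, 1.18 and 0.868 CPM in Resilient, and 2.43, 0.741, 1.02, 1.22 and 0.550 CPM in Susceptible mice. Tmem119 in D2 libraries reached 0.679, 1.43, 1.20, 2.36 and 3.18 CPM in Control, 1.15, 0.706, 1.33, 3.40 and 1.27 CPM in Resilient, and 1.44, 0.633, 1.93, 3.58 and 1.59 CPM in Susceptible mice. Tmem119, a membrane protein of unclear function, had a log2 difference of -0.51 ± 0.30 (SE; adjusted p = 0.207). P2ry13, the neighbour of P2ry12 on chromosome 3 and also an ADP receptor, was at 0.0059 ± 0.51 (SE; adjusted p = 0.995). Sall1, the transcription factor of microglial identity, was at -0.26 ± 0.20 (SE; adjusted p = 0.351), Fcrls, an Fc receptor-like protein, at -0.53 ± 0.29 (SE; adjusted p = 0.172), Selplg, the P-selectin ligand, at -0.57 ± 0.32 (SE; adjusted p = 0.192), and Gpr34, a lysophosphatidylserine receptor, at -0.78 ± 0.38 (SE; adjusted p = 0.124). Without D1 Control 1, Fcrls, Gpr34 and Selplg were called lower in D1 libraries.

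The 3 C1q chains lie side by side on the minus strand of chromosome 4 (GRCm38), C1qb at 136880129 to 136886187, C1qc at 136889804 to 136893065 and C1qa at 136895917 to 136898803. C1qa in D1 libraries stood at 7.73, 2.62, 1.83, 1.57 and 1.63 CPM in Control, 1.16, 0.754, 1.41, 0.889 and 2.53 CPM in Resilient, and 3.35, 0.988, 1.66, 1.67 and 5.54 CPM in Susceptible mice. C1qa in D2 libraries reached 3.05, 3.82, 3.89, 10.0 and 5.10 CPM in Control, 6.34, 5.39, 3.94, 11.4 and 2.57 CPM in Resilient, and 1.52, 6.62, 3.74, 4.55 and 4.18 CPM in Susceptible mice. C1qa was highest in D1 Control 1 and D1 Susceptible 5 among D1 libraries, and 5 D1 libraries were below all D2 libraries. C1qb in D1 libraries stood at 7.32, 1.69, 0.810, 0.979 and 1.04 CPM in Control, 0.993, 1.14, 1.18, 1.65 and 1.02 CPM in Resilient, and 2.94, 1.23, 1.97, 3.15 and 3.70 CPM in Susceptible mice. C1qb in D2 libraries reached 1.57, 3.76, 3.71, 5.88 and 3.70 CPM in Control, 3.92, 2.34, 2.84, 7.18 and 3.32 CPM in Resilient, and 0.408, 1.92, 4.35, 4.16 and 3.23 CPM in Susceptible mice. D2 Susceptible 1, at 0.408 CPM, was the lowest of all 30 libraries for C1qb. C1qc in D1 libraries stood at 6.11, 0.987, 1.05, 0.591 and 0.849 CPM in Control, 1.71, 0.793, 0.827, 1.47 and 1.99 CPM in Resilient, and 1.93, 0.836, 0.716, 1.17 and 2.55 CPM in Susceptible mice. C1qc in D2 libraries reached 1.69, 3.17, 2.56, 5.10 and 2.85 CPM in Control, 1.97, 2.65, 1.73, 6.62 and 1.71 CPM in Resilient, and 0, 1.52, 3.86, 4.93 and 2.97 CPM in Susceptible mice. The 3 chains followed one another in the high libraries, with D1 Control 1 and D2 Resilient 4 at the top of their classes for each. Log2 differences were -1.18 ± 0.29 (SE; adjusted p = 0.00229) for C1qa, -0.83 ± 0.30 (SE; adjusted p = 0.0386) for C1qb and -0.90 ± 0.41 (SE; adjusted p = 0.0966) for C1qc, so C1qa and C1qb were called and C1qc was not. C1qb lost its call when any of several single libraries was left out, and C1qc gained one without D1 Control 1.

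Of the 13 pan-myeloid signalling and phagocytosis genes, 12 were tested and 7 were lower in D1 libraries. Ctss in D1 libraries stood at 13.3, 2.96, 2.79, 1.79 and 2.55 CPM in Control, 1.37, 1.99, 1.98, 2.12 and 3.80 CPM in Resilient, and 4.06, 1.61, 2.20, 3.52 and 2.46 CPM in Susceptible mice. Ctss in D2 libraries reached 3.34, 4.14, 5.23, 8.55 and 9.73 CPM in Control, 9.37, 6.40, 7.25, 9.78 and 4.90 CPM in Resilient, and 8.24, 7.76, 6.51, 10.4 and 5.82 CPM in Susceptible mice. In 11 of 15 D1 libraries Ctss was below every D2 library, while D1 Control 1, at 13.3 CPM, was above every other library of either class. The log2 difference of Ctss was -1.22 ± 0.24 (SE; adjusted p = 0.000196). Tyrobp encodes DAP12, the adaptor that carries the signal of Trem2. Tyrobp in D1 libraries stood at 0.724, 0.460, 0.283, 0.388 and 0.364 CPM in Control, 0.319, 0.155, 0.413, 0.435 and 0.203 CPM in Resilient, and 1.01, 0.304, 0.555, 0.886 and 0.202 CPM in Susceptible mice. Tyrobp in D2 libraries reached 0.105, 0.778, 1.11, 1.19 and 0.0860 CPM in Control, 0.645, 0.499, 0.934, 1.07 and 0.322 CPM in Resilient, and 0, 2.01, 1.44, 0.720 and 0.823 CPM in Susceptible mice. The classes overlapped, and the log2 difference was -0.84 ± 0.44 (SE; adjusted p = 0.152).

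Trem2, a lipid receptor of microglia, was the gene that did not pass the filter. Trem2 in D1 libraries stood at 0.0315, 0, 0, 0.0185 and 0.0971 CPM in Control, 0, 0.0967, 0.0207, 0.0363 and 0 CPM in Resilient, and 0, 0.0190, 0, 0 and 0.183 CPM in Susceptible mice. Trem2 in D2 libraries reached 0.0348, 0, 0.0182, 0.0365 and 0.0143 CPM in Control, 0.0161, 0.0689, 0, 0 and 0 CPM in Resilient, and 0.0215, 0, 0, 0 and 0 CPM in Susceptible mice. These values rest on 26 counts over 15 D1 libraries and 12 counts over 15 D2 libraries, with 7 and 8 libraries at 0. No fold is given, because most libraries of both classes were at or under 3 counts.

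Ptprc, the leukocyte phosphatase CD45, had lowest, median and highest values of 0, 0.146 and 0.507 CPM in D1 and 0, 0.817 and 1.85 CPM in D2 libraries, and a log2 difference of -2.41 ± 0.57 (SE; adjusted p = 0.00154). The Fc receptor chain Fcer1g was at -1.30 ± 0.37 (SE; adjusted p = 0.00746), the IgG receptor Fcgr3 at -1.33 ± 0.41 (SE; adjusted p = 0.0131), the integrin Itgam (CD11b) at -1.08 ± 0.37 (SE; adjusted p = 0.0288), the lysosomal protein Laptm5 at -0.94 ± 0.27 (SE; adjusted p = 0.00721), and the actin-binding protein Aif1 (IBA1) at -0.62 ± 0.20 (SE; adjusted p = 0.0154). Itgam shares 3450 exon bases with Gm49368 on the same strand, so its counts are uncertain. The other pan-myeloid genes did not pass the test, with log2 differences of -0.78 ± 0.45 (SE; adjusted p = 0.202) for Ly86, -0.26 ± 0.66 (SE; adjusted p = 0.813) for the lipopolysaccharide co-receptor Cd14, -0.040 ± 0.16 (SE; adjusted p = 0.884) for the lipid phosphatase Inpp5d (SHIP1), and -0.018 ± 0.13 (SE; adjusted p = 0.940) for Cd68. For Cd68 and Inpp5d the lowest, median and highest values were 5.50, 8.03 and 9.30 and 4.04, 5.46 and 6.80 CPM in D1 and 3.28, 8.05 and 11.5 and 1.78, 6.15 and 8.71 CPM in D2 libraries. These were among the highest levels of the 32, with means of 8.01 ± 0.891 CPM (SD, n = 15) and 5.42 ± 0.850 CPM in D1 libraries.

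Both transcription factors were lower in D1 libraries. Spi1, which encodes PU.1, had lowest, median and highest values of 0, 0.148 and 0.803 CPM in D1 and 0.0871, 0.516 and 1.39 CPM in D2 libraries, and a log2 difference of -1.80 ± 0.47 (SE; adjusted p = 0.00418). Irf8, its partner in microglial development, had 0.762, 1.18 and 2.64 CPM in D1 and 0.561, 2.32 and 3.43 CPM in D2 libraries, and a log2 difference of -0.71 ± 0.21 (SE; adjusted p = 0.0109). The D1 and D2 ranges of both factors overlapped.

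The class difference within single conditions was next compared. In Control mice 1 of 31 genes was lower in D1 libraries, Lyz2 at a log2 difference of -2.74 ± 0.54 (SE; adjusted p = 0.000864), against 4.8% of all genes called lower. The share of the 31 called in Control was thus not above the background. In Resilient mice 8 were lower (C1qa, C1qb, Csf1r, Ctss, Lyz2, Mrc1, Olfml3 and Siglech), against 3.9% of all genes. The smallest adjusted p there belonged to Lyz2 at -3.50 ± 0.57 (SE; adjusted p = 8.27e-05), Ctss at -1.74 ± 0.41 (SE; adjusted p = 0.00624) and C1qa at -2.14 ± 0.51 (SE; adjusted p = 0.00681). In Susceptible mice 4 were lower (Ctss, Lyz2, Mrc1 and Siglech), against 13.4% of all genes, so the share of the 31 was close to the background. Lyz2 was at -3.11 ± 0.56 (SE; adjusted p = 0.000221), Siglech at -1.60 ± 0.39 (SE; adjusted p = 0.00343) and Ctss at -1.51 ± 0.42 (SE; adjusted p = 0.00921) in that comparison. None of the 31 was higher in D1 libraries in any of the 3 conditions, and the medians were -0.67, -1.24 and -0.72, against -0.0028, -0.0035 and 0.017 over all genes.

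The Control count depended on 1 library. Without D1 Control 1, 8 genes were lower in D1 Control libraries (C1qb, Ctss, Cx3cr1, Fcrls, Irf8, Laptm5, Lyz2 and Olfml3), and the median fell to -1.41. Shares over all genes are given only for the fit with all libraries. Counts from fits without a library therefore have no background beside them. Without D2 Susceptible 1 or 2 the Control count was 2. The Resilient count ran from 4, without D1 Resilient 2, to 10, without D1 Control 1 or without D2 Susceptible 1, and was 7 without D2 Resilient 5 or without D1 Susceptible 1. The Susceptible count ran from 4 to 6 over single libraries left out, with 6 without D2 Susceptible 2 and 5 without D1 Susceptible 1 or without D2 Susceptible 1. Without both D2 Susceptible 1 and 2, Siglech and Ctss lost their calls, and the 5 called were Fcgr3, Itgam, Lyz2, Mrc1 and Pf4. With D1 Control 1 and D1 Susceptible 1 left out as well, Siglech and Ctss were called again. D1 Control 1 was the highest of the 5 D1 Control libraries for 22 of the 32 genes and the highest of all 15 D1 libraries for 18. Its level was 7.01 times the mean of the other 4 for C1qc, 6.48 times for C1qb, 6.23 times for Fcrls, 5.28 times for Ctss and 3.32 times for Cx3cr1, but 1.09 times for Cd68, 1.07 times for Sall1 and 0.918 times for Mrc1, and Ptprc and Pf4 had no count. Genes of other cells were also higher in that library, with summed levels 1.69 times the mean of the other 4 for 10 astrocyte genes, 1.80 times for 11 oligodendrocyte genes, 1.86 times for 10 endothelial genes and 2.95 times for 15 blood and lymphoid genes. For the C1q chains together the ratio was 5.41. The 3 D1 libraries with the highest summed level of the 32 genes, D1 Control 1, D1 Susceptible 1 and D1 Susceptible 5 (116, 78.0 and 63.3 CPM), also had the largest D1 shares of counts on Gm42418, at 2.49%, 54.9% and 5.46%, against 0.365% to 0.659% in the other 12. D1 Susceptible 4, next at 54.7 CPM, had 0.577%. Together these libraries had the 4 highest Drd2 levels of the D1 class (124 to 143 CPM, against 49.8 to 106 CPM). Penk, like Drd2 a D2 class gene, was highest among D1 libraries in D1 Resilient 5, at 2351 CPM. The parts of Gm42418 and of these genes in the levels were not tested.

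In the stress comparisons none of the 31 genes passed the test. In D1 libraries the counts were 0 of 31 for Susceptible minus Control, Resilient minus Control and Susceptible minus Resilient, against 0% of all genes in each. In D2 libraries they were 0 of 31 in the same 3 comparisons, against 0.00516%, 0% and 0.0516% of all genes. DESeq2 and voom with quality weights likewise called 0 of the 31 in each of the 6. At an unadjusted p under 0.05, edgeR gave 0, 6 and 3 genes in D1 and 2, 0 and 1 in D2, in the order just given. Of all 19368 genes, 465, 503 and 675 in D1 and 3038, 814 and 3693 in D2 were under that level. The median SE of a single gene was 0.54 on the log2 scale in D1 Susceptible minus Control, so a change of that size in 1 gene could not be told from 0.

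**Figure D4:**
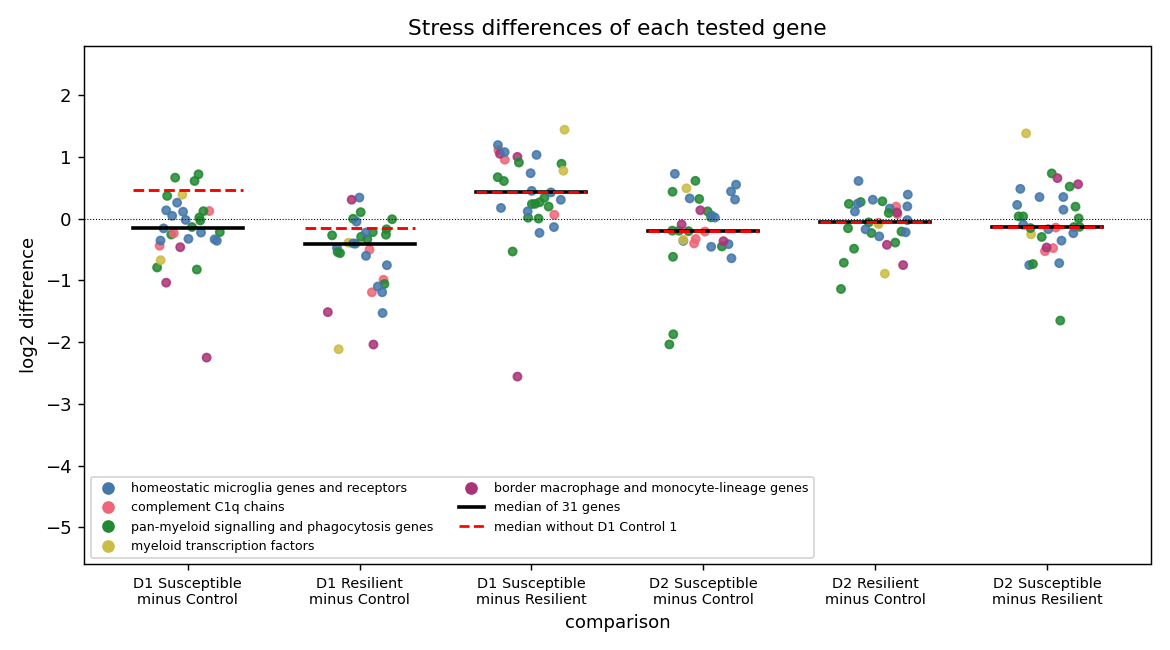
Log2 difference of each of the 31 tested genes (points, coloured by role) in the 6 stress comparisons, with the median as a black bar and the median without D1 Control 1 as a dashed red bar. The median for D1 Susceptible minus Control moves from -0.16 to 0.46 without that library, and the D2 medians lie between -0.19 and -0.059.

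In D1 Resilient minus Control, 27 of 31 genes had a negative log2 difference, with a median of -0.40 against -0.0086 over all genes. The 6 genes with an unadjusted p under 0.05, named here after their values were seen, were Lyz2 at -1.51, Ctss at -1.06, Spi1 at -2.11, Fcrls at -1.19, C1qa at -1.19 and Mrc1 at -2.04, all with an adjusted p of 1 by edgeR. Without D1 Control 1 the median was -0.15 and none of the 31 had an unadjusted p under 0.05. The difference was then -0.16 for Ctss, -0.15 for Fcrls, -0.50 for C1qa and -0.70 for Lyz2, while Mrc1 stayed at -2.06 and Spi1 at -1.48. Mrc1 had D1 Control values of 0.151 to 0.289 CPM and D1 Resilient values of 0 to 0.248 CPM, which overlap. Most genes of other cells shared that sign, with negative log2 differences for 10 of 10 astrocyte genes (median -0.58), 11 of 11 oligodendrocyte genes (median -0.52), 10 of 10 endothelial genes (median -0.32) and 9 of 11 mural cell and fibroblast genes (median -0.51). None of them passed the test, and 5, 7, 0 and 3 had an unadjusted p under 0.05. Their part in the values of the 32 genes was not tested.

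In D1 Susceptible minus Control the median was -0.16 with all libraries and 0.46 without D1 Control 1, so its sign rested on that library. In D1 Susceptible minus Resilient, which does not compare that library, 27 of 31 log2 differences were positive, with a median of 0.43 against -0.0066 over all genes. Irf8 at 0.78, C1qb at 1.11 and Fcrls at 1.03 had an unadjusted p under 0.05 and an adjusted p of 1 by edgeR. Without D1 Control 1, which then no longer enters the estimate of the spread, 7 genes had an unadjusted p under 0.05. The number over all genes in that fit is not given here. The C1qb values given above show the pattern, with D1 Resilient libraries at 0.993 to 1.65 CPM and D1 Susceptible libraries at 1.23 to 3.70 CPM, which overlap. Summed over the 32 genes, D1 Susceptible 2 and 3, at 41.3 and 44.6 CPM, lay within the D1 Resilient range (40.6 to 52.4 CPM). D1 Susceptible 1, 4 and 5 lay above it, at 78.0, 54.7 and 63.3 CPM. Most genes of other cells had the same sign. Log2 differences were positive for 10 of 10 endothelial genes (median 0.65), 10 of 10 astrocyte genes (median 0.49), 11 of 11 oligodendrocyte genes (median 0.23) and 9 of 11 mural cell and fibroblast genes (median 1.10), and unadjusted p under 0.05 came to 6, 2, 1 and 4 of them. Their part in the values of the 32 genes was not tested.

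In D2 libraries the medians were -0.19, -0.059 and -0.13 for Susceptible minus Control, Resilient minus Control and Susceptible minus Resilient, with 14 positive and 17 negative differences in each. Ly86 at -1.87 (adjusted p = 0.255, edgeR) and Inpp5d at -0.62 (adjusted p = 0.274) had an unadjusted p under 0.05 in Susceptible minus Control, and Csf1r at -0.75 (adjusted p = 0.254) in Susceptible minus Resilient. D2 Susceptible 1 and 2, the libraries with few detected genes, had no count for 9 and 5 of the 32 genes, against 0 to 2 in the other D2 libraries. For Csf1r these libraries, at 2.43 and 3.08 CPM, and D2 Control 1, at 2.98 CPM, were the 3 lowest of the D2 class. Without both, the median of Susceptible minus Control was 0.067.

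The difference between the D1 and D2 stress changes was tested as an interaction. None of the 31 genes passed in any of the 3 comparisons (Susceptible minus Control, Resilient minus Control, Susceptible minus Resilient), against 0% of all genes in each, and DESeq2 and voom also called 0. Unadjusted p under 0.05 came to 0, 1 and 3 genes by edgeR, and to 5, 0 and 5 without D1 Control 1. With all libraries, 1509, 967 and 2404 of all 19368 genes were under that level. The median of the Resilient minus Control interaction was -0.42 with all libraries and 0.0085 without D1 Control 1, and that of Susceptible minus Control 0.067 and 0.45. The 3 in the last comparison were Csf1r at 1.49 ± 0.52 (SE; adjusted p = 0.278), C1qa at 1.48 ± 0.70 (SE; adjusted p = 0.387) and C1qb at 1.59 ± 0.75 (SE; adjusted p = 0.379), all with the D1 change more positive than the D2 change.

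Genes of other cells that the punches could hold were also lower in D1 libraries in the averaged comparison. The endothelial genes were lower in 10 of 10 cases with a median log2 difference of -3.10, for example Pecam1 at -3.07 and Flt1 at -3.65, and Flt1 stood at 5.98 ± 2.60 CPM (SD, n = 15) in D1 and 73.0 ± 28.7 CPM in D2 libraries. Of the 10 tested blood and lymphoid genes, 6 passed the filter only through the D2 libraries and are not counted. The other 4, all haemoglobin genes, were lower with a median of -4.58, and Hbb-bs, whose reads may be split with its near-identical copy Hbb-bt, had 4.40 ± 3.75 and 97.0 ± 39.5 CPM. Mural cell and fibroblast genes were lower in 8 of 10 cases (median -2.34, leaving out Lum, which passed only through the D2 libraries), astrocyte genes in 8 of 10 (median -1.24), and oligodendrocyte genes in 11 of 11 (median -0.83). The 5 tested ependymal and choroid genes had a median of 0.012. Summed levels ranged from 19.7 to 53.1 CPM in D1 and from 86.2 to 396 CPM in D2 libraries for the endothelial genes, from 3.14 to 20.9 and from 74.6 to 281 CPM for the blood genes, and from 15.3 to 43.2 and from 102 to 275 CPM for the mural genes, none of which overlapped. These sums take every gene of a list (15 blood and 11 mural genes), with those left out above and those not tested. They ranged from 368 to 826 and from 401 to 783 CPM for the astrocyte genes and from 397 to 1067 and from 457 to 1943 CPM for the oligodendrocyte genes, which overlapped. The part of these cells in the levels of the 32 genes was not tested.

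**Figure D5:**
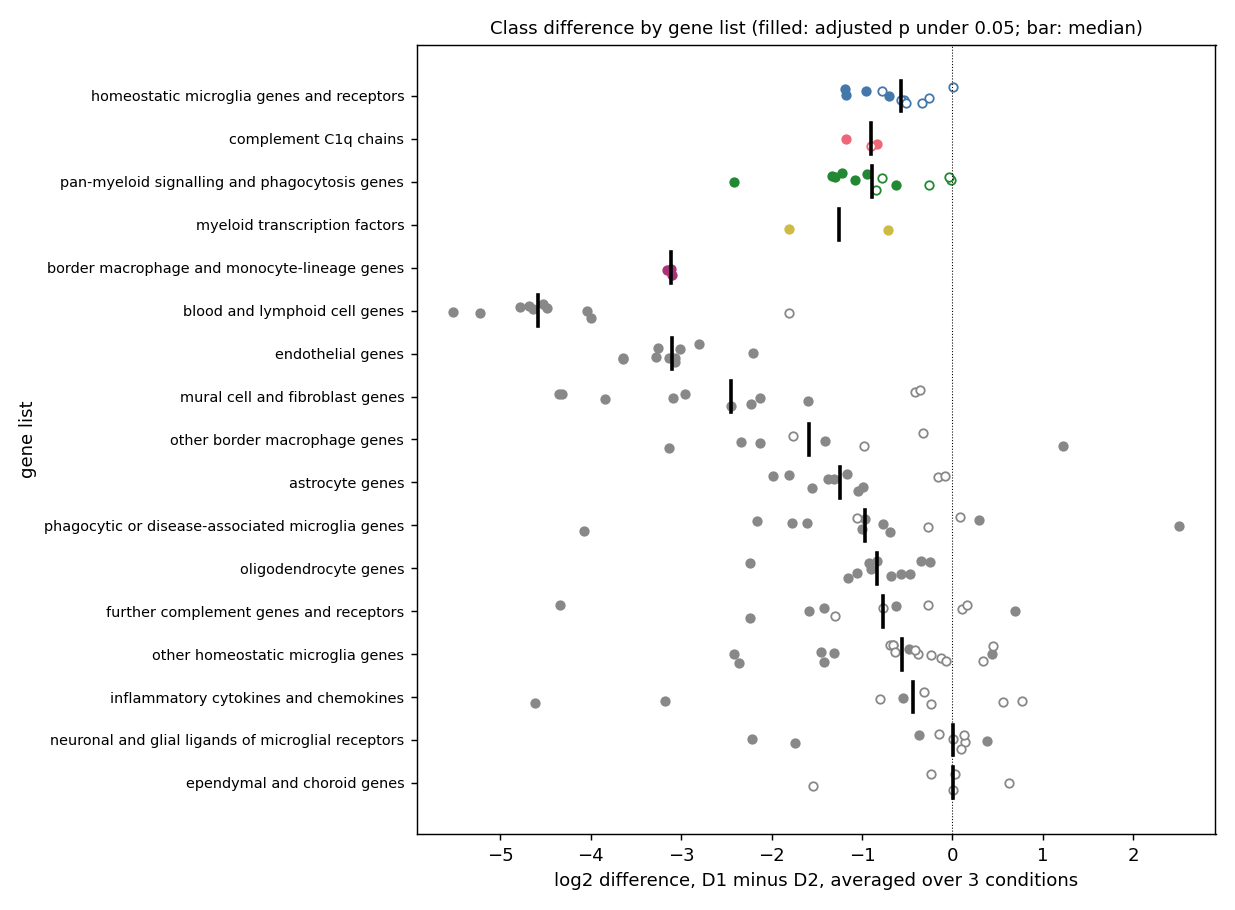
Averaged log2 difference of D1 minus D2 for each tested gene (points) in the 5 roles of the 32 genes (coloured) and in lists of other genes (grey), with filled points at an adjusted p under 0.05 and bars at the medians. The medians run from -4.58 for blood and lymphoid genes, of which 6 of 10 passed the filter only through D2 libraries, to near 0 for ligands and ependymal genes.

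Other genes of microglial pathways were read from lists chosen with earlier results of these data known. Cx3cl1, the ligand of Cx3cr1, stood at 1041 ± 60.4 CPM (SD, n = 15) in D1 and 1033 ± 124 CPM in D2 libraries, and Il34, a neuronal ligand of Csf1r, at 69.4 ± 3.99 and 63.7 ± 7.04 CPM. Csf1, the other ligand of Csf1r, was at 3.03 ± 1.13 and 2.76 ± 0.911 CPM. Of 9 ligands, 1 was higher and 3 were lower in D1 libraries. Cd200, which restrains microglia through its receptor, was higher at a log2 difference of 0.38, with 149.8 ± 16.3 CPM in D1 and 115 ± 12.3 CPM in D2 libraries, while Pros1 at -2.21, Tgfb1 at -1.74 and Tgfb2 at -0.37 were lower. Tgfb1 was at 0.350 ± 0.253 and 1.10 ± 0.487 CPM. In the 6 stress comparisons edgeR called 0 of the 130 tested genes of all the other lists, with 102 of 780 tests at an unadjusted p under 0.05. Of all 19368 genes, edgeR had 465, 503 and 675 in D1 and 3038, 814 and 3693 in D2 under that level, in the order used for stress above. DESeq2 made 10 calls among the 780 tests and voom 1. The shares of all genes that DESeq2 and voom called, and the genes behind those calls, are not given here.

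Among further complement genes, C4b at -1.59 and Cd59a at -0.62 were lower, and Cd55, a complement regulator on the cell surface, was higher at 0.69. Of 6 border macrophage genes that are not among the 32 and passed the filter through the D1 libraries, Dab2 at -2.34, F13a1 at -2.13 and Stab1 at -1.41 were lower and the transcription factor Maf was higher at 1.23, with 14.7 ± 2.91 CPM in D1 and 6.33 ± 2.69 CPM in D2 libraries. Phagocytic or disease-associated genes were lower in 8 of 13 cases, led by Ctsz at -0.69, Cd74 at -4.07 and B2m at -0.97, and higher in 2. Of the 18 tested homeostatic genes outside the 32, 7 were lower, led by Sparc at -2.41, Tgfbr2 at -1.42 and Slco2b1 at -2.36, and 1 was higher. Of 16 cytokine and inflammasome genes, 8 were too low to be tested. Of the 5 that passed the filter through the D1 libraries, Il18 at -0.55 was lower.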

How the data were processed

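RNA-seq was made from HA pulldowns of ribosomes in 30 pools of mice, with 10 ng of RNA per library and the SMART-Seq v4 kit, per the labels' protocols. In the deposited files each gene has its raw read count, not normalized. HISAT2, HTSeq, GRCm38 and mm10 are named in the submitters' processing notes, which give no versions. Annotation release and strand setting: not given in the sources used here. One series table held the same counts, with 30 of 30 columns identical, and 5 lines of unassigned reads (10.1% to 53.3% of a library) stayed out of all totals.

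Identifiers were matched to GENCODE M21, which gave a symbol for 55154 of 55335 genes, and coordinates come from it. Genes were filtered with filterByExpr (minimum count 10, minimum total 15), which kept 19368. After TMM scaling, edgeR 4.0.16 (R 4.3.3) was run with the robust quasi-likelihood F test, in 1 model of 6 groups, with Benjamini-Hochberg adjustment over all genes in each of 13 comparisons at 0.05. The filter asked for about 0.189 CPM in 5 libraries. The biological coefficient of variation was 41.4%. The sample titles gave each library its group and number. Replicates differed by more than sampling noise (chi-square per degree of freedom 12.8 to 2672 over 60 pairs), so none was merged. The fit was tested on simulated data.

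The members and lists were chosen with earlier results of these data known. Values in every library are given for 13 members named by rule and for those, at most 3 per direction, that led a comparison by adjusted p (under 0.05). From other lists up to 3 genes in each direction are named by the same order, and 5 ligands whatever their values; a result of the further complement list is not reported here. Others named are said to be so, or complete a short count.

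Alternatives were DESeq2 1.42.0, its size factors, no filter, only the groups compared, voom with quality weights (limma 3.58.1), the replicate number as a block, and fits without single or several libraries. Promoter motifs were searched in RefSeq windows (GRCm38.p6), and figures drawn with matplotlib 3.10.9.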

Additional observations from a re-analysis of the deposited data

Results flagged for a closer look

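In groups of 5 libraries the highest or lowest library was set against the other 4, by the size of its gap relative to the whole range (Dixon's test at the 95% level, critical value 0.71). Of 114 checks, 29 stood apart, where chance gives about 1 in 20, and 15 of the 29 were D1 Control 1. In that library Cx3cr1 stood at 10.2 CPM, P2ry12 at 3.46 CPM, Tmem119 at 3.41 CPM, Csf1r at 7.93 CPM, C1qa at 7.73 CPM, C1qb at 7.32 CPM, C1qc at 6.11 CPM, Ctss at 13.3 CPM and Lyz2 at 1.78 CPM, each the highest of the D1 Control libraries. Summed by role, it held 50.7 CPM for the homeostatic microglia genes and receptors, 21.1 CPM for the complement C1q chains, 39.3 CPM for the pan-myeloid signalling and phagocytosis genes, 3.38 CPM for the myeloid transcription factors, 2.00 CPM for the border macrophage and monocyte-lineage genes and 116 CPM for all 32 genes.

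Other libraries stood above the other 4 of their group for single genes or sums. D2 Control 4 had Cx3cr1 at 16.4 CPM, and D2 Resilient 1 had P2ry12 at 3.39 CPM. In D2 Resilient 4, Tmem119 was at 3.40 CPM, C1qc at 6.62 CPM and the C1q chains together at 25.2 CPM. C1qb was at 1.65 CPM in D1 Resilient 4. Summed over the 32 genes, D1 Resilient 5 held 52.4 CPM and D2 Susceptible 4 held 103 CPM. Values on few counts also stood apart, in groups where most libraries were at or near 0. These were Trem2 in D1 Susceptible 5 (0.183 CPM), in D2 Resilient 2 (0.0689 CPM) and in D2 Susceptible 1 (0.0215 CPM), Mrc1 at 0.248 CPM in D1 Resilient 3, and Pf4 at 0.148 CPM in D1 Resilient 5 and 0.0190 CPM in D1 Susceptible 2.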

How the results depend on the processing

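Across all alternatives no member was called in a stress comparison or an interaction, and none was called higher in D1 libraries. Shares of all genes called under the alternatives are not given, so a higher or lower count is not read as particular to the members. The averaged class comparison gave 18 calls by DESeq2 and with its size factors (the same 18 genes), 17 with no filter and 23 by voom with quality weights (17 of the 18 among them, without Aif1), 20 without D2 Susceptible 1 and 2, and 25 without those libraries, D1 Control 1 and D1 Susceptible 1. Leaving out each library in turn gave 16 to 22, and the calls lost were C1qb and Itgam. In Control the count was 6 with only the groups compared, 17 by voom, 4 by DESeq2, 7 without D2 Susceptible 1 and 2 and 14 without the 4 libraries, and 1 to 8 over single libraries, with 8 without D1 Control 1 and 2 without D2 Susceptible 1 or 2. In Resilient it was 5 with no filter, 15 with only the groups compared, 16 by voom and 15 without the 4 libraries, and 4 to 10 over single libraries, with 4 without D1 Resilient 2, 5 without D1 Resilient 1, 3 or 4 or D2 Resilient 1, 2 or 3, and 10 without D1 Control 1 or without D2 Susceptible 1. In Susceptible it was 2 with only the groups compared, 13 by voom, 7 by DESeq2 and 9 without the 4 libraries, and 4 to 6 over single libraries. Without D2 Susceptible 1 and 2 it was 5, with Siglech and Ctss lost. The cause was not tested. In the averaged comparison, and in others at an unadjusted edgeR p under 0.05, signs changed for 5 members. None of the 5 was called in the same comparison with all libraries by edgeR. Of these, voom called Cd68 and Inpp5d lower in the averaged comparison, and Sall1 was called in Susceptible without D1 Susceptible 1 or without D2 Susceptible 5. Outside that set more signs changed without D1 Control 1, such as P2ry12 in Control, from 0.38 to -0.065. Ctss in D1 Susceptible minus Control moved from -0.79 to 0.11, and C1qb in D1 Resilient minus Control from -0.99 to 0.085. P2ry13 in Control was at 0.59, and at -0.32 without D1 Control 1. Averaged log2 differences became 0.000817 for Cd68 with no filter, 0.037 and 0.061 for Sall1 by voom and without D2 Susceptible 1 and 2, and -0.0012, -0.44 and -0.50 for P2ry13 with DESeq2's size factors, by voom and without the 4 libraries. Over single libraries they ranged from -0.0628 to 0.0691 for Cd68, from -0.0914 to 0.0543 for Inpp5d, from -0.286 to 0.251 for P2ry13 and from -0.562 to 0.0336 for Cd14. Sall1 in Susceptible became 0.013 by voom and 0.20 without D2 Susceptible 1 and 2. Replicate numbers are shared between groups but did not pair the libraries: over 75 pairs with the same number the deviations correlated at -0.168 to 0.0779, with 0 over 0.1, and 2 of 30 libraries correlated best with their own number. With the replicate number as a block the averaged comparison gave 16 calls (C1qb and Itgam lost), Control 1, Resilient 7 and Susceptible 4, each stress comparison 0, and P2ry13 was at -0.0752. Depth limits genes near 3 counts a library, Trem2 and Pf4 above all.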
